A study of Mus musculus with 11 samples.

Results

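The expression of 10 genes of killer lymphocytes was followed across the CD8 T, CD4 T and NK cells of control and injured mouse kidneys. The genes are *Gzma*, *Gzmb*, *Gzmk*, *Prf1*, *Nkg7*, *Ifng*, *Fasl*, *Klrd1*, *Pdcd1* and *Lag3*. They were chosen by symbol, as effectors of cytotoxicity and as receptors of lymphocyte restraint and exhaustion, and make up 10 of the 28692 genes counted in the series.

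The mice were male C57Bl/6, 10 weeks old at surgery, and whole-kidney cell suspensions were sequenced with 3′ 10x Chromium single-cell RNA-seq. In unilateral ischemia/reperfusion (UIR) the left renal pedicle was clamped for 30 minutes. In unilateral ureteral obstruction (UUO) the left ureter was tied off for good. Injured kidneys were taken on day 28. The controls were naive mice of the same strain, sex and age per the study's methods, with no operation, so surgery itself and injury cannot be told apart. There were 5 control, 3 UIR and 3 UUO libraries, 1 mouse each. Control replicates 1 to 5 carry the titles Ctrl, N1, N2, AN1 and AN2, and replicate 3 of UIR and of UUO is the library whose title has no number. The controls were made in 3 batches, and no batch is given for the injured kidneys, so batch and injury cannot be told apart.

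Libraries held 49503312 to 117043590 UMIs (unique molecular identifiers, 1 per captured transcript) over all barcodes, and 40411 barcodes were kept as cells. Of these, 3760 were T/NK cells. Controls gave 20 to 29 T/NK cells per library, UIR 403 to 862 and UUO 450 to 659. Within them 803 cells were CD8 T-like, 1756 CD4 T-like and 121 NK-like, by markers that included none of the 10 genes. The remaining 1080 were left unnamed, among them a cluster of 237 T cells with high *Klrb1c*, a receptor shared by NK and NKT cells. At least 8 of the 10 T/NK markers were detected in every class and group. The CD8 T-like cells had 0 UMIs of the NK marker *Ncr1*. A control library held only 3 to 5 CD8 T-like cells and 1 to 3 NK-like cells. Cells sharing a barcode with another library numbered 44 of the 3760. Levels are UMIs of a gene per 1000000 UMIs (CPM) after summing all cells of a class in a library, so each library is 1 value, and p-values measure the spread between libraries.

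Killer lymphocytes carry lytic granules. Perforin (*Prf1*) opens the membrane of a target cell and granzymes (*Gzma*, *Gzmb*, *Gzmk*) are serine proteases that enter it. *Nkg7* encodes a membrane protein of these granules. *Fasl* is the ligand of the death receptor Fas, and *Ifng* encodes interferon-gamma, which activates macrophages. *Klrd1* encodes CD94, the partner chain of the NKG2 receptors that read the class Ib molecule Qa-1. *Pdcd1* (PD-1) and *Lag3* are receptors that restrain T cells and stay high on chronically stimulated, exhausted T cells, though PD-1 is also induced by activation.

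In the GRCm38 annotation (GENCODE vM21) *Gzma* lies at chr13:113093825-113100981 and *Gzmk* at chr13:113171608-113225908, both on the minus strand. They are separated by 70626 bp with 0 protein-coding genes between them. *Gzmb* lies on the minus strand at chr14:56258838-56262260, *Prf1* on the plus strand at chr10:61297833-61304680 and *Nkg7* on the plus strand at chr7:43437073-43438249. *Ifng* is at chr10:118441046-118445892 and *Fasl* at chr1:161780689-161788495. *Klrd1* is at chr6:129591782-129598775, *Pdcd1* at chr1:94038305-94052553 and *Lag3* at chr6:124904361-124911705. The promoters of the neighbours *Gzma* and *Gzmk* are shown because these genes had opposite patterns in NK and CD8 T cells, and those of *Gzmb* and *Prf1* because both were detected in NK and CD8 T cells alike. Each runs from 250 bases before to 50 bases after the RefSeq start site on GRCm38.p6, 5′ to 3′ on the gene's strand. Capitals mark matches on either strand to the Runx motif TGTGGT, the AP-1 motif TGANTCA or the T-box motif GGTGTGA, all bound by factors of activated lymphocytes.
Gzma, chr13:113100932-113101231: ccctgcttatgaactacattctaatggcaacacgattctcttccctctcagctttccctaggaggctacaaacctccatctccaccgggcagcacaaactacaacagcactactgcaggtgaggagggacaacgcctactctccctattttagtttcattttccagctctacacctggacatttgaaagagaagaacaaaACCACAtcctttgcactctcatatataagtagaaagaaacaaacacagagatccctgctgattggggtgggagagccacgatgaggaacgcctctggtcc
Gzmk, chr13:113180916-113181215: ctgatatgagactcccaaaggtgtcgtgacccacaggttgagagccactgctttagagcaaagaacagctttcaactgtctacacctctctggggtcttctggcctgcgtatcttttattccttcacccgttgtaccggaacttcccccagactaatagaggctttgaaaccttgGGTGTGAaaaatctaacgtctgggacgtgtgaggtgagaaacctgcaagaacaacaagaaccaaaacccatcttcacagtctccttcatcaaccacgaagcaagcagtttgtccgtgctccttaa
Gzmb, chr14:56262285-56262584: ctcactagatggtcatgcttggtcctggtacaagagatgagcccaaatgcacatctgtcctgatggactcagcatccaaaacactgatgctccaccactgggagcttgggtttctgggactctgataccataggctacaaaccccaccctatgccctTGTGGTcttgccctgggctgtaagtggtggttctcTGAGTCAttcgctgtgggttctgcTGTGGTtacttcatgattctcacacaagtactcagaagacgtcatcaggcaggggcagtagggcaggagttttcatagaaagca
Prf1, chr10:61297586-61297885: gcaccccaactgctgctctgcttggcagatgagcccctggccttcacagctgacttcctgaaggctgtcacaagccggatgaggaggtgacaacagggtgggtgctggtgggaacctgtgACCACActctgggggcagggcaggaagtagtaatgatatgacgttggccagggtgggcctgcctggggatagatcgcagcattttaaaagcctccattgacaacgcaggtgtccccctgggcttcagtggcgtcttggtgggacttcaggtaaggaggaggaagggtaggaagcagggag

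The *Gzmk* start used by RefSeq lies inside the longer GENCODE span. The *Gzma* window held 1 Runx match, that of *Prf1* 1, that of *Gzmb* 2 plus an AP-1 match, and that of *Gzmk* a T-box match only. Promoter sequence was matched for 8 of the 10 genes, all but *Klrd1* and *Lag3*. Over these 8, a Runx match was present in 4, an AP-1 match in 1 and a T-box match in 2, against 16.8%, 7.81% and 3.98% of 32851 promoters. No listed match stood in the windows of *Ifng*, *Fasl* and *Pdcd1*. These are matches of letters and not measured sites.

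Most UMIs of 8 of the 10 genes came from T/NK cells. The share in T/NK cells was 80.8% for *Gzma*, 82.7% for *Gzmb*, 84.7% for *Prf1* and 89.8% for *Ifng*. It was 92.4% for *Gzmk*, 93.0% for *Pdcd1*, 94.0% for *Nkg7* and 96.0% for *Fasl*. Among classes of T/NK cells *Gzma* leaned to NK-like cells, which held 66.1% of its 4312 UMIs, *Gzmk* to CD8 T-like cells, with 61.4% of 1468 UMIs, and *Pdcd1* to CD4 T-like cells, with 52.3% of 1505 UMIs. These shares are not adjusted for class size (1756 CD4 T-like, 803 CD8 T-like and 121 NK-like cells), and levels per class are given below. *Klrd1* and *Lag3* were mostly read elsewhere. The cDC2-like cells, a class of dendritic cells, held 56.8% of the 6661 *Klrd1* UMIs and T/NK cells 35.3%. In the 6 injured libraries cDC2-like cells had 351 ± 102 CPM of *Klrd1* (SD, n = 6), with a UMI in 41.4% of cells, whereas macrophage-like cells had 2.35 ± 0.900 CPM. *Lag3* UMIs were spread over T/NK cells (29.2%), macrophage-like cells (26.6%) and cDC2-like cells (13.1%), and its level in cDC2-like cells was 16.1 ± 4.29 CPM and in macrophage-like cells 13.7 ± 4.10 CPM. Barcodes outside T/NK cells that had no class name held 14.6% of *Gzma* and 14.2% of *Gzmb* UMIs.

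**Figure D1:**
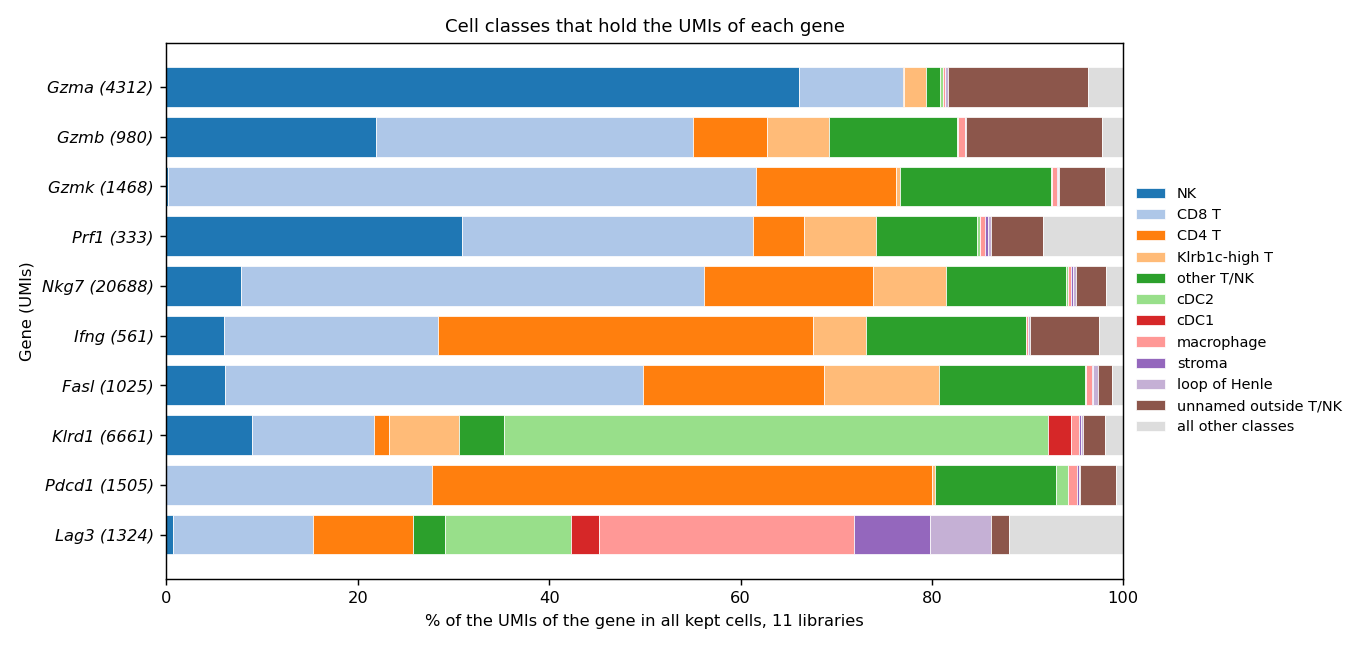
Share of each gene's UMIs (percent, horizontal axis) found in each cell class, over all kept cells of the 11 libraries, 1 stacked bar per gene. *Gzma* UMIs were mostly in NK-like cells, *Gzmk* in CD8 T-like cells, *Pdcd1* in CD4 T-like cells and *Klrd1* in cDC2-like cells, with no adjustment for class size.

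The level of the killing genes set NK, CD8 T and CD4 T cells apart. For this comparison cells were taken by marker gates that use none of the 10 genes, in the 6 injured libraries. Gated NK cells had a UMI of *Ncr1* or *Klrb1c* and none of the T cell genes (98 cells), gated CD8 T cells had *Cd8a* or *Cd8b1* with a CD3 or *Trac* UMI and no *Cd4* (1072 cells), and gated CD4 T cells had the reverse (1017 cells). Values below are in the order UIR replicates 1, 2 and 3, then UUO replicates 1, 2 and 3.

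*Gzma* separated NK cells from both T cell types. Gated NK cells had 2565, 1828 and 7621 CPM in UIR and 5289, 8200 and 7564 CPM in UUO. Gated CD8 T cells had 74.8, 99.1 and 28.4 CPM, then 249.1, 177 and 21.3 CPM. Every NK value lay above every CD8 T value. The ratio of summed UMIs, NK over CD8 T, was 46.4 (95% interval 42.3 to 50.9, which covers counting error only, as do all such intervals here). The log2 difference fitted by edgeR's quasi-likelihood test with the library as a block was 5.48 ± 0.29 (SE, Benjamini-Hochberg adjusted p = 5.92e-18, n = 6 libraries). Gated CD4 T cells held only 10 *Gzma* UMIs in all, 0 to 5.39 CPM per library.

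*Gzmk* went the other way. It was at 160, 189 and 305 CPM and then 223, 189 and 272 CPM in gated CD8 T cells. Gated NK cells held 1 UMI of it in the 6 libraries together, in UUO replicate 2. The CD8 T cells were thus 86.5 times as high (95% interval 15.5 to 3419), and the fitted log2 difference, NK minus CD8 T, was -6.46 ± 0.51 (edgeR adjusted p = 8.98e-13). CD4 T cells had 18.9 to 37.5 CPM of *Gzmk*, below the CD8 T cells in 6 of 6 libraries (log2 difference 2.94 ± 0.12, edgeR adjusted p = 6.05e-21).

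*Gzmb* and *Prf1* were present in both killer types. *Gzmb* was at 58.4 to 575 CPM in gated NK cells and 56.7 to 135 CPM in gated CD8 T cells, so the ranges overlapped, with NK above CD8 T in 5 of 6 libraries. The exception was UIR replicate 2, with 58.4 against 115 CPM. The log2 difference was 1.85 ± 0.25 (edgeR adjusted p = 4.32e-07). *Prf1* was at 136 to 391 CPM in NK cells and 16.3 to 33.2 CPM in CD8 T cells, with no overlap (log2 difference 2.83 ± 0.26, edgeR adjusted p = 5.99e-11). Gated CD4 T cells had 0 to 2.65 CPM of *Prf1* and 0 to 43.7 CPM of *Gzmb*.

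*Klrd1* followed *Prf1*. It was at 856 to 1301 CPM in gated NK cells, 171 to 388 CPM in CD8 T cells and 3.94 to 19.4 CPM in CD4 T cells, with no overlap between the 3 types (NK over CD8 T, log2 difference 2.06 ± 0.12, edgeR adjusted p = 5.40e-16). The granule gene *Nkg7* was at 2120 to 3956 CPM in NK cells and at 1852 to 3457 CPM in CD8 T cells. NK cells were higher within each of the 6 libraries, but the fitted difference was only 0.14 ± 0.10 (95% interval -0.06 to 0.34, edgeR adjusted p = 0.469). *Fasl* and *Ifng* missed the threshold too, with NK minus CD8 T log2 differences of -0.39 (95% interval -0.85 to 0.07) and 0.69 (0.02 to 1.36). Neither had an unadjusted edgeR p under 0.05, and the intervals of fitted differences are somewhat narrow.

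*Pdcd1* had 0 UMIs in gated NK cells, where the CD8 T cells had 512 UMIs and the CD4 T cells 382. Against a limit of 3 UMIs, NK cells were at least 14.2-fold lower than CD8 T cells and at least 10.6-fold lower than CD4 T cells. In CD8 T cells the level was 48.2 to 185 CPM and in CD4 T cells 48.0 to 118 CPM. CD8 T cells were higher in 5 of 6 libraries by 0.51 ± 0.13 on the log2 scale (edgeR adjusted p = 0.00374). That call was lost with DESeq2 (0.50, adjusted p = 0.120), with cells taken by cluster (0.34, adjusted p = 0.0882) and without UUO replicate 1 (0.37, adjusted p = 0.0508). *Lag3* was at 16.4 to 126 CPM in CD8 T cells, 5.39 to 39.3 CPM in CD4 T cells and 0 to 33.8 CPM in NK cells. It was higher in CD8 T than CD4 T cells in 5 of 6 libraries (1.30 ± 0.26, edgeR adjusted p = 2.99e-04), but not past the threshold with DESeq2 (1.39, adjusted p = 0.107).

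In all, 6 of the 9 members tested differed between gated NK and CD8 T cells, where 14.4% of 3694 genes did. Between NK and CD4 T cells 8 of 8 tested differed (15.2% of 4248 genes), and *Gzmk* and *Lag3* did not pass the filter on low counts. There *Gzma* stood 10.97 ± 0.22 and *Klrd1* 6.42 ± 0.18 apart on the log2 scale, and *Ifng* was closest to the threshold (1.02 ± 0.36, edgeR adjusted p = 0.0476). Its call was lost in 9 of 18 alternatives (0.70 to 1.12, adjusted p = 0.0567 to 0.567), which were DESeq2, no filter on low counts, at least 10 cells per pool, free RNA subtracted, and leaving out UIR replicate 3, any 1 UUO replicate or both unnumbered libraries. Between CD8 T and CD4 T cells 9 of 10 were higher in CD8 T cells (14.5% of 7019 genes differed, 7.71% were higher), and *Ifng* was the exception (0.45 ± 0.18, edgeR adjusted p = 0.1003). Without both unnumbered libraries, UIR and UUO replicate 3, the counts were 6, 7 and 7, with *Ifng*, *Pdcd1* and *Lag3* lost. The filter on low counts can pass a gene through the cell type where it is high, which shapes these counts and the shares over all genes. *Pdcd1* had 0 UMIs in gated NK cells and *Gzmk* 1, and gated CD4 T cells held 10 of *Gzma* and 9 of *Prf1*. With no filter *Gzmk* was called lower in NK than in CD4 T cells, *Lag3* was not called there and *Ifng* lost its call.

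**Figure D2:**
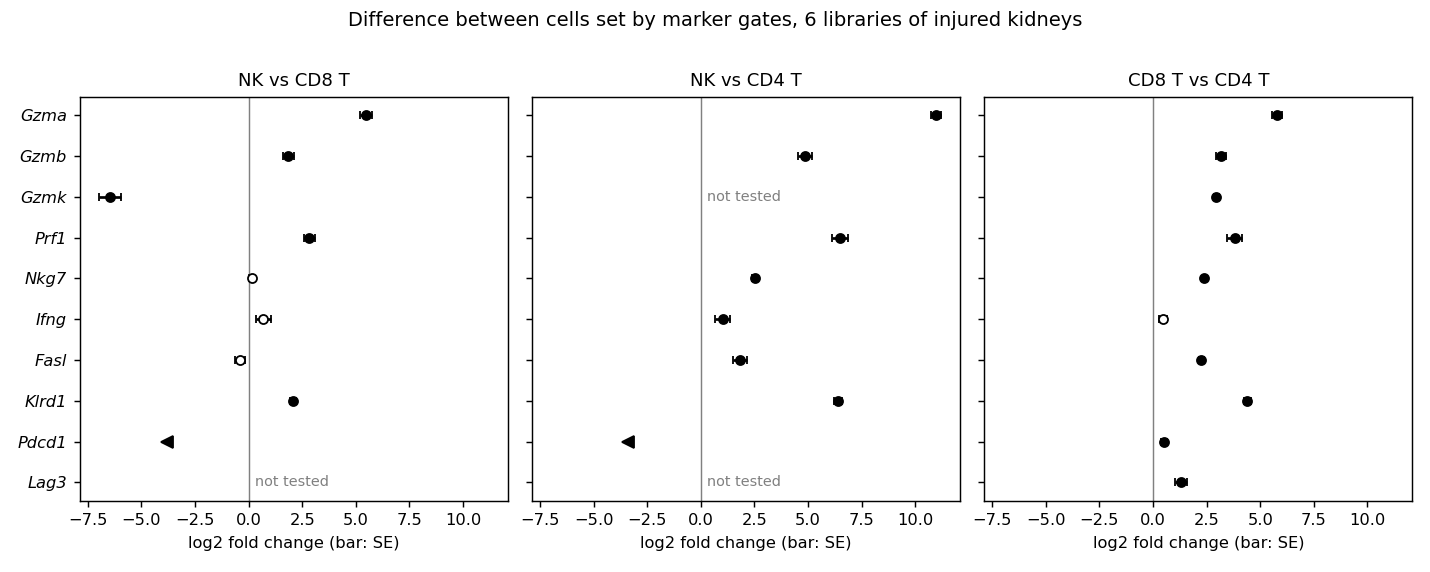
Fitted log2 fold change of each gene (points, bars are the SE) between gated cell types over 6 injured libraries, 1 panel per pair, filled where the edgeR adjusted p was under 0.05 and open where it was not. A triangle gives the bound for *Pdcd1*, which had 0 UMIs in NK cells; *Gzma* is far to the right in both NK panels and *Gzmk* far to the left against CD8 T cells.

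Other genes of the killing programme also differed between the gated types. Of 18 NK-type receptor genes, 13 were tested between NK and CD8 T cells and 10 were higher in NK cells, with a median log2 difference of 3.06 against 0.00 over all genes. Of all 3694 genes tested, 223 were higher and 308 lower in NK cells. The low-count filter shapes these counts as well. *Klrb1b* was at 0 CPM and *Klri2* at 0.156 CPM in CD8 T cells, so they could pass it through NK cells. *Klrb1f* had 445 CPM in NK and 10.9 CPM in CD8 T cells, on average. Of the granule genes 10 were tested, with 3 higher and 1 lower. *Serpinb9*, the inhibitor that protects killers from their own granzyme B, was at 203 CPM in NK and 37.3 CPM in CD8 T cells (log2 difference 2.30 ± 0.24, edgeR adjusted p = 1.22e-09), whereas *Srgn*, the proteoglycan that packs granules, was higher in CD8 T cells (-0.53 ± 0.14, adjusted p = 0.00767). Among transcription factors 5 of 11 were higher in NK cells and 1 lower, and *Eomes*, a T-box factor of killer cells, was at 212 CPM in NK, 69.9 CPM in CD8 T and 3.52 CPM in CD4 T cells. *Xcl1*, a chemokine for cDC1 cells, was at 1266, 279 and 102 CPM in NK, CD8 T and CD4 T cells. *Cxcr6*, a chemokine receptor of tissue-resident T cells, was higher in CD8 T than NK cells (763 against 151 CPM, -2.52 ± 0.22, edgeR adjusted p = 2.90e-11), and 3 of the 7 residence genes tested were lower and 1 higher in NK cells.

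Inhibitory genes other than *Pdcd1* and *Lag3* split between CD8 T and CD4 T cells. Of 12 tested, 3 were higher and 6 lower in CD8 T cells, with a median log2 difference of -0.22 against 0.01 over all genes. Of all 7019 genes tested, 541 were higher and 479 lower in CD8 T cells. *Cd160*, an inhibitory and NK-associated receptor, was at 104 CPM in CD8 T and 3.63 CPM in CD4 T cells (4.84 ± 0.24, edgeR adjusted p = 2.30e-18). *Ctla4*, a checkpoint receptor also high in regulatory T cells, was at 19.0 and 88.9 CPM (-2.05 ± 0.18, adjusted p = 2.57e-11). *Tnfrsf9*, a co-stimulatory receptor induced by activation, was at 12.4 and 82.9 CPM (-2.64 ± 0.19, adjusted p = 1.24e-13).

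The same order of levels was seen in the clusters. Over the 6 injured libraries NK-like cells had 5288 ± 2370 CPM of *Gzma* (SD, n = 6), and CD8 T-like cells 112 ± 84.6 CPM. *Klrd1* was at 1096 ± 214 CPM in NK-like and 237 ± 96.2 CPM in CD8 T-like cells. *Gzmk* was at 257 ± 65.5 CPM in CD8 T-like and 27.3 ± 8.68 CPM in CD4 T-like cells. *Pdcd1* was at 120 ± 65.8 CPM in CD8 T-like and 97.0 ± 22.2 CPM in CD4 T-like cells, which overlapped. In the 121 NK-like cells *Pdcd1* had 0 UMIs, which allows a share of cells with a UMI of up to 3.003% (exact 95% bound over cells pooled from all libraries, which covers the sampling of cells and not the spread between libraries). Cells of the proximal tubule (PT), which should lack these genes, gave the background of free RNA. Their mean share of cells with a UMI was 0.0759%, 0.898% and 1.19% for *Nkg7* in control, UIR and UUO, and at most 0.134% for *Gzma*. PT cells had a median of 3124 UMIs in controls, 1542 in UIR and 1786 in UUO, against 4073 and 4335 in NK-like cells of UIR and UUO.

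**Figure D3:**
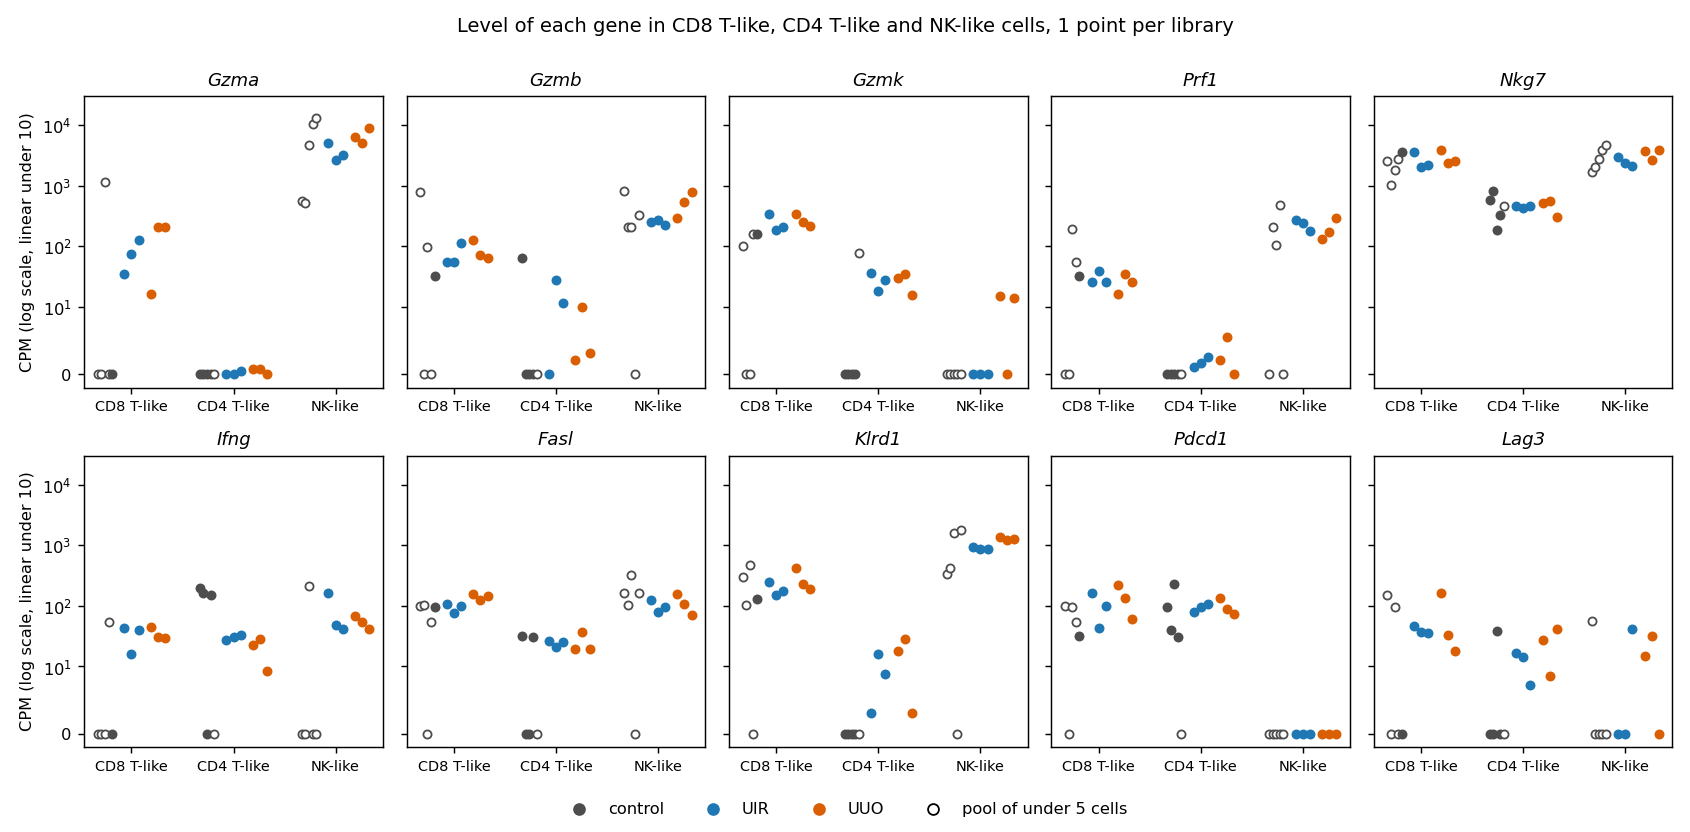
Level of each gene (CPM, on a log axis that is linear under 10) in CD8 T-like, CD4 T-like and NK-like cells, 1 point per library, colored by control, UIR and UUO and open where the library held under 5 cells of the class. In the 6 injured libraries *Gzma* and *Prf1* were highest in NK-like cells and *Gzmk* in CD8 T-like cells, and *Pdcd1* was at 0 in all NK-like pools.

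Few CD8 T-like cells carried *Gzma*, and a few of those held much of it. In UIR 11 of 363 cells had a UMI, with 143 UMIs in all, of which the top 3 cells held 90.2% and 1 cell alone 98. In UUO 19 of 421 cells had 312 UMIs, 49.7% of them in the top 3 cells. All 30 of these cells had a CD3 UMI, 28 had *Cd8a* or *Cd8b1*, and 9 of 30 had a UMI of an NK marker, against 94 of the 754 cells without *Gzma*. *Gzmb* was found in 20 of the 30, or 66.7%, against 12.7% of the rest. In NK-like cells *Gzma* was found in a larger share, 22 of 43 UIR cells and 44 of 67 UUO cells, and the top 3 cells held 45.7% and 19.3% of its UMIs. *Gzmk* was seen in 177 of 363 UIR and 254 of 421 UUO CD8 T-like cells, and the top 3 cells held 6.18% and 4.48% of it.

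Among CD8 T-like cells, *Pdcd1* and *Lag3* were more frequent in a small cluster, although more of the cells with either gene lay in the large one. The 10 genes were left out of the features used for clustering. The cluster of 79 cells had *Pdcd1* in 74.7% and *Lag3* in 50.6% of cells, against 18.1% and 8.70% in the large CD8 T-like cluster of 724 cells. It held 193 UMIs of *Pdcd1* and 113 of *Lag3*, and the large cluster 225 and 81. Its leading genes against all other T/NK cells began with *Nkg7* and *Ccl5*, which belong to the killing programme, and also included *Pdcd1*, *Cxcr6* and *Tox*, a factor of exhausted T cells. It shared *Nkg7*, *Ccl5* and *Cxcr6* with the leading genes of the large cluster, but not *Pdcd1* and *Tox*. These are descriptions of clusters and were not tested. Its *Pdcd1* level was 378, 457, 699 and 1108 CPM in UIR replicate 3, UIR replicate 2, UUO replicate 3 and UUO replicate 1, the libraries with at least 5 of its cells, and 32.7 to 94.6 CPM in the large cluster of the 6 injured libraries. The unnumbered libraries gave 61 of the 79 cells, so this cluster rested mostly on them. Within CD8 T-like cells of the injured kidneys *Lag3* was found in 25.4% of the 185 cells with *Pdcd1* and in 9.02% of the rest, and the share was higher in cells with *Pdcd1* in 6 of 6 libraries. The gap was widest in UUO replicate 3 (52.5% against 11.2%) and narrowest in UUO replicate 2 (8.82% against 6.99%).

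Among other T/NK clusters, *Pdcd1* was found in 44.3% of the 582 cells of the CD4 T-like cluster led by *Ikzf2* and *Foxp3*, genes of regulatory T cells, and in 10.9% of the 978 cells of the largest CD4 T-like cluster. *Nkg7* ran the other way there, in 11.5% and 68.8% of cells. A cluster of 33 cells with the gamma-delta receptor gene *Trdc* in 100% of cells had *Pdcd1* in 66.7% and *Gzma*, *Gzmk*, *Prf1* and *Nkg7* in 0 cells. The *Klrb1c*-high T cluster had *Klrd1* in 59.9% and *Nkg7* in 94.9% of cells, *Gzma* in 4.22%, and *Lag3* in 0 of 237 cells.

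**Figure D4:**
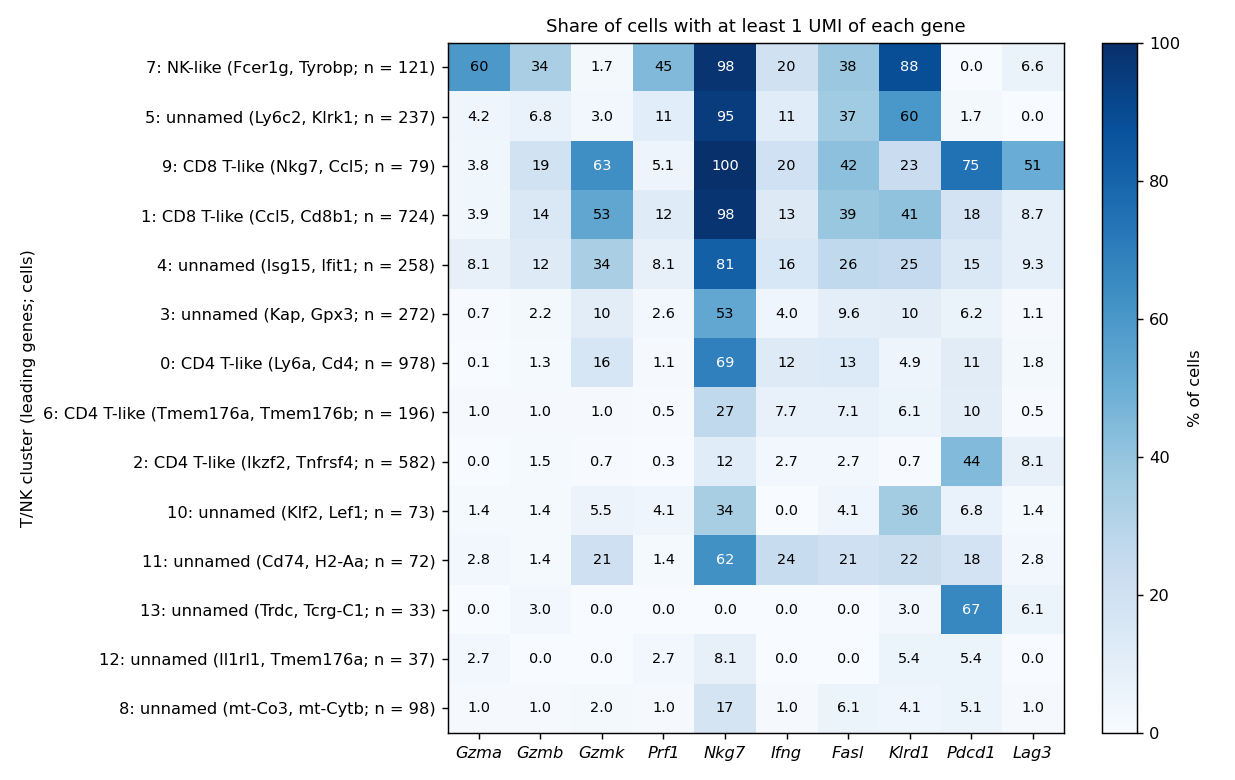
Percent of cells with at least 1 UMI of each gene (columns) in the 14 T/NK clusters (rows, with leading genes and cell numbers), darker for higher shares. *Gzma*, *Prf1* and *Klrd1* stand out in the NK-like cluster, and *Pdcd1* in the small CD8 T-like cluster, the cluster led by *Trdc* and the *Foxp3* cluster.

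The next question was whether injury changed these genes. Over all T/NK cells summed per library, *Gzmk* rose in both injuries, *Pdcd1* rose in UUO, *Gzma* and *Klrd1* fell in UIR, and *Ifng* fell in UUO. UIR against control gave 3 of 10 members called (0.549% of 9648 genes), UUO against control 3 of 10 (2.58%) and UUO against UIR 1 of 10 (1.81%). Both injuries were compared with the same 5 controls. A change here can come from fewer cells of a type or from less RNA per cell, which cannot be told apart in a summed pool, and the make-up of the pool moved with injury. NK-like cells were 4.17 to 15% of T/NK cells in controls, against 1.74 to 3.23% in UIR and 3.11 to 5.01% in UUO. The *Klrb1c*-high T cluster was 28.6 to 44.8% in controls, with 5.71 to 6.50% in UIR and, for UUO, 2.22 to 5.31%. CD8 T-like cells were 10.3 to 19.2%, 12.4 to 21.5% and 19.96 to 39.3%. The summed level of the 7 PT markers in the pool was 724 to 2062 CPM in controls, with 354 to 1090 CPM in UIR and, for UUO, 36.1 to 94.4 CPM, and that of the 6 macrophage markers 0 to 27.3, 97.8 to 149 and 101 to 133 CPM. All 7 PT markers were detected in each group, and the part of these markers in the results was not tested.

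*Gzmk* was at 17.0, 0, 0, 27.2 and 54.5 CPM in control replicates 1 to 5. It was at 55.3, 76.7 and 106 CPM in UIR and at 93.2, 92.9 and 105 CPM in UUO. All 6 injured libraries lay above all 5 controls, although control replicate 5 was close to UIR replicate 1. The log2 change was 2.01 ± 0.43 in UIR (edgeR adjusted p = 0.0111) and 2.28 ± 0.42 in UUO (edgeR adjusted p = 5.80e-04). Without the NK-like and *Klrb1c*-high T clusters, the UUO change was 1.64 (adjusted p = 0.0407) and the UIR change 1.38 (adjusted p = 0.308). The UIR call was also lost without control replicate 1, 2 or 3 (1.67 to 1.93, adjusted p = 0.0646 to 0.106) and without both unnumbered libraries (1.71, adjusted p = 0.108), where the UUO change was past the threshold (2.15, adjusted p = 0.0126).

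*Pdcd1* was at 42.4, 7.96, 91.2, 18.1 and 9.09 CPM in controls. It was at 67.8, 93.5 and 88.1 CPM in UIR and 79.3, 64.1 and 135 CPM in UUO. Control replicate 3, whose level rests on 7 UMIs, lay among the injured libraries. The other controls lay below them, and their levels rest on fewer UMIs still. The change was 1.68 ± 0.41 in UUO (edgeR adjusted p = 0.0130) and 1.56 ± 0.41 in UIR (adjusted p = 0.0849), and UUO against UIR was 0.12 ± 0.22 (edgeR adjusted p = 1.0). The UIR change was also past the threshold with no filter on low counts, with cells chosen by their UMIs of T/NK markers (2.53, edgeR adjusted p = 0.0195), without control replicate 3 and without UUO replicate 3. In UUO it was 1.05 (adjusted p = 0.269) without the NK-like and *Klrb1c*-high T clusters, which had *Pdcd1* in 0% and 1.69% of cells. Leaving out control replicate 2, 4 or 5 or UUO replicate 3 also ended the call (1.26 to 1.56, adjusted p = 0.0658 to 0.0984), as did leaving out both unnumbered libraries (1.24, adjusted p = 0.140).

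*Gzma* was widely spread in controls, at 84.9, 39.8, 729, 389 and 718 CPM. UIR libraries had 89.4, 93.5 and 182 CPM, and UUO libraries 258, 349 and 333 CPM. UIR values lay between the low and the high controls, and all UUO values lay above all UIR values. Relative to controls the change was -1.56 ± 0.38 in UIR (edgeR adjusted p = 0.0371) and -0.21 ± 0.35 in UUO (adjusted p = 0.871), and UUO exceeded UIR by 1.35 ± 0.35 (edgeR adjusted p = 0.0270). The UIR call was lost with DESeq2 (-1.72, adjusted p = 0.547), without any of control replicates 3, 4 and 5, UIR replicates 1 and 2 and UUO replicate 2 (-1.60 to -1.11, adjusted p = 0.0664 to 0.374), and without the NK-like and *Klrb1c*-high T clusters (-0.78, adjusted p = 0.826). The UUO against UIR call was lost with DESeq2 (1.33, adjusted p = 1.0), without control replicate 4, UIR replicate 1 or 2 or UUO replicate 2 (1.18 to 1.34, adjusted p = 0.0562 to 0.442), and without those clusters (1.21, adjusted p = 0.209). Without both unnumbered libraries the differences were -2.004 (adjusted p = 0.0868) for UIR and 1.68 (adjusted p = 0.174) for UUO against UIR.

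*Klrd1* was at 161, 151, 365, 235 and 273 CPM in controls, 110, 107 and 118 CPM in UIR and 153, 134 and 239 CPM in UUO. Every UIR library lay below every control, while UUO overlapped the controls. The UIR change was -0.96 ± 0.23 (edgeR adjusted p = 0.0334). It was -0.23 (adjusted p = 0.852) without the NK-like and *Klrb1c*-high T clusters, the T/NK clusters with the highest shares of *Klrd1* cells (88.4% and 59.9%). Leaving out control replicate 3, 4 or 5 or UIR replicate 1 or 2 ended the call as well (-1.01 to -0.81, adjusted p = 0.0814 to 0.218), as did a mitochondrial limit of 15% (-0.76, adjusted p = 0.189). Without both unnumbered libraries the change was -1.06 (adjusted p = 0.0219).

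*Ifng* was at 76.4, 31.9, 78.1, 72.4 and 63.6 CPM in controls, 28.3, 36.8 and 32.8 CPM in UIR and 28.2, 19.7 and 33.1 CPM in UUO. Control replicate 2 lay within the injured range and the other controls above it. The change was -1.18 ± 0.32 in UUO (edgeR adjusted p = 0.0310) and -0.86 ± 0.31 in UIR (adjusted p = 0.311). The UUO call was lost without control replicate 1, 3, 4 or 5 or UUO replicate 2 (-1.15 to -1.04, adjusted p = 0.0844 to 0.121), and without the NK-like and *Klrb1c*-high T clusters it was -1.16 (adjusted p = 0.248). It was also lost with a mitochondrial limit of 50% (-1.08, adjusted p = 0.0907) and with 1000 UMIs per barcode (-1.08, adjusted p = 0.0702). With a limit of 15% it was larger (-2.32, adjusted p = 2.08e-04), and with doublets kept it was -2.08 (adjusted p = 0.00123). *Ifng* was called in UIR as well under both of these settings. Without both unnumbered libraries *Ifng* did not pass the filter on low counts and was not tested.

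The free RNA of each library and the way cells were chosen also bore on these calls. With free RNA subtracted, *Gzmk* and *Pdcd1* kept theirs, while those of *Gzma* (UIR -1.52, edgeR adjusted p = 0.0901, and UUO against UIR 1.28, adjusted p = 0.528), *Klrd1* (-0.92, adjusted p = 0.0822) and *Ifng* (-1.20, adjusted p = 0.0648) were lost. With cells chosen by their UMIs of T/NK markers in place of clusters, *Pdcd1* alone stayed past the threshold, and *Gzmk* was at 1.28 in UIR (adjusted p = 0.423) and 1.64 in UUO (adjusted p = 0.0670).

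*Gzmb*, *Prf1*, *Nkg7*, *Fasl* and *Lag3* passed no threshold in the summed pool. *Nkg7* was at 1172 to 1981 CPM in controls, with 914 to 1329 CPM in UIR and, for UUO, 1114 to 1623 CPM. *Prf1* was at 8.49 to 45.3, 15.7 to 17.1 and 15.2 to 21.8 CPM, and *Fasl* at 31.9 to 99.6, 44.5 to 60.2 and 65.8 to 70.3 CPM. Counting the members whose libraries did not overlap at all gave 1 higher and 1 lower of 10 for UIR against control (5.68% of genes), 1 higher for UUO against control (7.17%), and 3 for UUO against UIR (12.8%). After thinning each cell to 1000 UMIs, the share of T/NK cells with *Klrd1* was 17.9% in controls, 7.76% in UIR and 11.8% in UUO on average, and with *Gzmk* 1.92%, 7.01% and 8.70%. The smallest p of an exact two-sided permutation test over libraries on such shares was 0.0357, the smallest that 3 against 5 libraries can give. The smallest adjusted p over the members was 0.214. With this few libraries no share could have passed the correction, whatever the data, so this test cannot decide on a change.

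**Figure D5:**
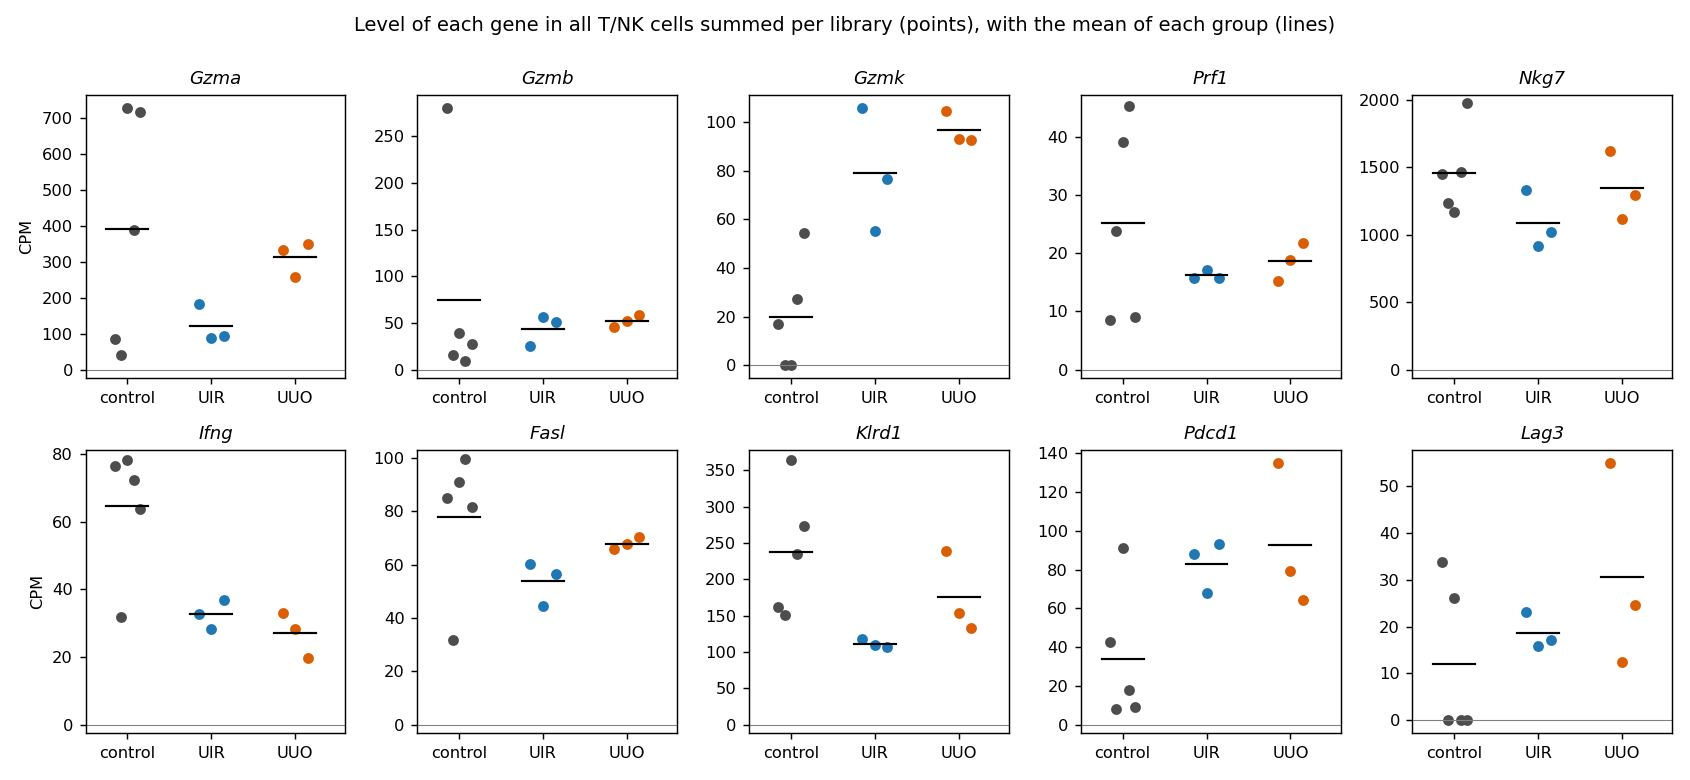
Level of each gene (CPM) in all T/NK cells summed per library, 1 point per library in the control, UIR and UUO groups, with a line at each group's mean. *Gzmk* was higher in all injured libraries than in all controls, *Klrd1* was lower in UIR than in all controls, and *Gzma* was higher in UUO than in UIR.

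Within CD8 T-like cells edgeR called 0 members in each of the 3 contrasts. Only control replicate 5 reached the 5 cells required of a pool, so the comparison with controls had 1 control library (0 of 10 called in UIR, where 0.0132% of 7556 genes were called, and 0 of 10 in UUO, where 0.146% were). With edgeR 0 members had an unadjusted p under 0.05 in either contrast, and DESeq2 also called 0. On simulated counts of these pools most changed genes were missed against control, so a count of 0 here says little about the absence of change. *Gzmk* was at 162 CPM in that control, at 189, 209 and 337 CPM in UIR and at 256, 216 and 337 CPM in UUO. With pools of at least 3 cells, which admits all 5 controls, edgeR called *Gzmk* in UUO (1.70, adjusted p = 0.0262) and not in UIR (1.61, adjusted p = 0.102), where the median over all genes was 0.53 in both. *Nkg7* was at 3571 CPM in the control and 2045 to 3933 CPM in the injured libraries.

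UUO and UIR could be compared in CD8 T-like cells with 3 libraries each, and 0 of 10 members were called by edgeR (0.357% of 7556 genes) or by DESeq2, with 2 at an unadjusted p under 0.05 by edgeR. *Fasl* was at 77.04, 101 and 108 CPM in UIR and 125, 144 and 158 CPM in UUO, with no overlap, as for 10.1% of genes, and was the only member without overlap. Its log2 difference was 0.51 (95% interval 0.10 to 0.92, unadjusted p = 0.0207 and adjusted p = 1.0 by edgeR). *Klrd1* differed by 0.50 (0.03 to 0.98, edgeR unadjusted p = 0.0463), with overlapping ranges of 151 to 247 CPM and 191 to 419 CPM. The intervals of *Gzmk* (-0.33 to 0.52) and *Pdcd1* (-0.28 to 1.05) included 0. *Gzma* was at 74.4, 127 and 34.9 CPM in UIR and 209, 210 and 16.6 CPM in UUO, where UUO replicate 3 was the lowest of all 6. Without both replicate 3 libraries it differed by 0.89 ± 0.19 (edgeR adjusted p = 8.32e-04), and 98 of the 143 UIR UMIs lay in 1 cell. *Lag3* was at 161 CPM in UUO replicate 3 and 18.0 to 46.5 CPM in the other 5 injured libraries.

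In CD4 T-like cells 8 members were tested and *Ifng* was called in UUO against control, 1 of 8 where 1.05% of 8079 genes were. In UIR 0 of 8 were called with edgeR (0.272% of genes), with 2 at an unadjusted p under 0.05, and DESeq2 called 1, *Ifng*. *Ifng* was at 195, 161, 0 and 152 CPM in control replicates 1 to 4, which held 5 to 7 cells each. It was at 31.0, 33.3 and 27.3 CPM in UIR and 28.9, 9.30 and 22.6 CPM in UUO. The 3 controls with any *Ifng* lay above all injured libraries and control replicate 3 below them. The UUO change was -2.26 ± 0.53 (edgeR adjusted p = 0.00741), where the median over all genes tested was 0.51, and it was lost without control replicate 1, 2 or 4 (-2.18 to -2.01, adjusted p = 0.113 to 0.162) and under other limits on cells or other clusterings, such as doublets kept (-1.58, adjusted p = 0.222) and resolution 2 (-1.63, adjusted p = 0.279). With 1000 UMIs per barcode, which left 1 control pool, its direction turned (7.49). In the *Foxp3* cluster of the injured libraries *Ifng* was at 0 to 34.9 CPM. In the largest CD4 T-like cluster it was at 21.5 to 48.3 CPM in these libraries. That cluster had 145 and 187 CPM in control replicates 2 and 4, with 5 cells each. *Pdcd1* was at 97.4, 40.3, 228 and 30.4 CPM in control replicates 1 to 4, 78.7 to 108 CPM in UIR and 74.4 to 135 CPM in UUO, with no call. *Gzma* and *Prf1* were too low to test in CD4 T-like cells, at 0 to 0.780 CPM and 0 to 5.46 CPM in the injured libraries. Between UUO and UIR 0 of 8 were called by edgeR (0.965% of genes) or DESeq2, with 4 at an unadjusted p under 0.05 by edgeR, *Gzmb* (-1.43), *Ifng* (-0.63), *Klrd1* (0.77) and *Lag3* (0.99).

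In NK-like cells no control library held the 5 cells required of a pool. With pools of at least 3 cells, which admits control replicates 1 and 3 with 3 cells each, 7 members were tested against control and 0 were called by edgeR in UIR (1 of 1412 genes was called) or UUO (5 of 1412). Unadjusted p was under 0.05 for 2 members in each. These controls rest on few UMIs, with *Prf1* at 0 and 1 UMI in replicates 1 and 3 and at 2, 2 and 0 in the left-out replicates 2, 4 and 5, so no fold is given. With pools of at least 5 cells, 5 members could be compared between UUO and UIR, of which 0 were called by edgeR (0.364% of 1100 genes) or DESeq2. *Gzma* was at 2643, 3189 and 5191 CPM in UIR and 5037, 9182 and 6488 CPM in UUO. Only UIR replicate 3 reached into the UUO range. The difference was 0.94 (95% interval 0.43 to 1.44, edgeR adjusted p = 0.193). *Gzmb* was at 274, 222 and 253 CPM in UIR and 548, 787 and 299 CPM in UUO, without overlap (1.10, 95% interval 0.42 to 1.77, edgeR adjusted p = 0.358). *Klrd1* was at 886, 887 and 940 CPM against 1235, 1265 and 1360 CPM, also without overlap, and 2 of 5 members were thus apart (10.3% of genes). The 4 members *Gzma*, *Gzmb*, *Nkg7* and *Klrd1* had an unadjusted p under 0.05, all higher in UUO, and *Prf1* did not (-0.24, 95% interval -0.97 to 0.48). Without both replicate 3 libraries *Gzma* (1.26, adjusted p = 2.08e-04) and *Gzmb* (1.39, adjusted p = 0.0234) were called by edgeR. These calls rest on few cells. The top 3 cells held 83.5% and 87.0% of the *Gzma* UMIs in UIR replicates 1 and 2, and 45.8% and 51.8% in UUO replicates 1 and 2. For *Gzmb* they held 94.1% and 100%, then 86.3% and 67.9%. Of the UMIs of *Gzma* over all T/NK cells, NK-like cells held 681 of 859 in UIR and 1990 of 2432 in UUO. The PT markers of the NK-like pools summed to 374 to 677 CPM in UIR and 42.2 to 97.2 CPM in UUO.

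A minority of the other genes of these programmes changed with injury. In all T/NK cells 91 of 99 listed genes were tested by edgeR, and 2 rose and 4 fell in UIR (0.549% of all genes tested were called), 5 rose and 9 fell in UUO (2.58%). Of 17 NK-type receptors tested 3 fell in UIR, with a list median of -0.92 against 0.12 over all genes, and 5 fell in UUO (median -0.47 against 0.13). *Klrk1*, the activating receptor NKG2D, fell from 351 to 141 CPM on average in UIR (-1.23 ± 0.22, edgeR adjusted p = 0.00164), and *Klre1* from 108 to 34.9 CPM (-1.55 ± 0.26, adjusted p = 7.87e-04). For *Klrk1* the ranges overlapped, with 145 to 535 CPM in controls and 106 to 166 CPM in UIR. For *Klre1* they did not (81.8 to 153 and 29.2 to 39.9 CPM). The NK-like and *Klrb1c*-high T shares were also smaller with injury, as given above, and their part in these falls was not tested. *Xcl1* fell from 534 to 196 CPM on average in UUO (-1.45 ± 0.26, edgeR adjusted p = 4.38e-04), with overlapping ranges of 117 to 800 CPM in controls and 137 to 236 CPM in UUO. *Ccl4* fell in the fit in UUO (-2.62 ± 0.66, adjusted p = 0.0192), although its controls ranged from 7.96 to 1899 CPM. *Itgae*, the CD103 integrin of resident lymphocytes, rose from 7.02 to 46.9 CPM in UUO (2.68 ± 0.52, adjusted p = 0.00105), and *Il7r*, the survival receptor of memory T cells, rose in both (UIR 1.15 ± 0.22, adjusted p = 0.00345, UUO 1.34 ± 0.22, adjusted p = 1.37e-04). The 16 inhibitory and exhaustion genes tested had medians of 0.47 in UIR and 0.61 in UUO, and edgeR called 0 of them in either.

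UUO exceeded UIR in 6 of 11 naive and memory genes in all T/NK cells (median 0.74 against 0.01 over all genes, of which 1.81% were called in either direction). *Ccr7*, the lymph node homing receptor, was at 21.3 against 5.04 CPM (2.04 ± 0.36, edgeR adjusted p = 3.50e-04), and *Klf2*, a factor of resting T cells, at 155 against 65.7 CPM (1.22 ± 0.25, adjusted p = 0.00227). With free RNA subtracted 7 of 9338 genes were called, 4 of them higher in UUO, so at least 2 of these 6 calls were lost. A cluster led by *Klf2* and *Lef1* held 57 of 1595 UUO, 11 of 2045 UIR and 5 of 120 control T/NK cells. Within NK-like cells *Xcl1* was lower in UUO, at 705 against 1785 CPM (-1.31 ± 0.26, edgeR adjusted p = 0.0159), 1 of 35 listed genes tested. With free RNA subtracted, 0 of 1075 genes were called in this contrast, so this call was lost. In CD8 T-like cells *Ccl5*, a chemokine of killer cells, was at 3506 CPM in the single control, a pool of 5 cells, and at 10990 and 10550 CPM on average in UIR and UUO. With 1 control library the spread of controls is unknown, and these values are given as a description. In CD4 T-like cells *Batf*, a factor of activated T cells, rose in UIR (3.004 ± 0.74, edgeR adjusted p = 0.0270) and UUO (3.05 ± 0.73, adjusted p = 0.00846) from 17.1 CPM in controls, where the median over all genes was 0.51 in UUO. The controls ranged from 0 to 37.95 CPM of *Batf*. A single UMI in control replicate 3 is 37.95 CPM, so the control level rests on very few UMIs. The *Foxp3* cluster held only 4 cells from control libraries, too few to judge whether its share in this class moved with injury. The part of this cluster in the rise of *Batf* was not tested. On simulated counts of the CD4 T-like pools, calls against control held more false calls than the threshold states, so the calls of *Batf* and *Ifng* in these cells are less certain than their adjusted p.

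Over the 14 class pools with at least 20 cells (6 CD8 T-like, 6 CD4 T-like and 2 NK-like), the gene most like *Nkg7* in its log2 level was *Ccl5* (Pearson r = 0.992), that most like *Klrd1* was *Klrk1* (0.976), and that most like *Prf1* was *Cd244*, an NK receptor (0.974). *Gzmk* was most like *Cd8b1* (0.97) and *Cd8a* (0.967). *Gzma* was most like *Xrn2* (0.978), *Gzmb* like *Ugcg* (0.979), *Fasl* like *Nkg7* (0.976), *Pdcd1* like *Lat* (0.944) and *Ifng* like *Vti1b* (0.851). *Lag3* had no close match, with *Ndufb5* at 0.793 the nearest. These correlations are over pools from shared libraries, mainly reflect the 3 classes, and are given as a description among 7729 genes.

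The partners of these receptors were read on the other cells of the injured kidneys. *H2-T23*, which encodes the Qa-1 molecule read by CD94 with NKG2A, was broad, at 292 ± 44.9 CPM in macrophage-like cells, 239 ± 23.6 CPM in endothelial-like cells and 58.6 ± 43.9 CPM in PT cells (SD, n = 6 libraries). *Fas* was highest in endothelial-like cells, at 160 ± 31.6 CPM, and was at 4.19 ± 2.93 CPM in PT cells. *Ifngr1*, the ligand-binding interferon-gamma receptor chain, was at 461 ± 70.5 CPM in macrophage-like cells and 34.6 ± 12.3 CPM in PT cells. The PD-1 ligand *Cd274* was at 113 ± 31.6 CPM in neutrophil-like cells (n = 3), 19.9 ± 5.46 CPM in endothelial-like cells and 1.07 ± 1.68 CPM in PT cells. *Fgl1*, a ligand of LAG-3, was at 1.45 ± 0.836 CPM in PT cells and 0 CPM in CD8 T-like, CD4 T-like and NK-like cells.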

How the data were processed

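Single-cell RNA-seq (10x Chromium, 3′ chemistry, NovaSeq) was analysed in 5 control, 3 UIR and 3 UUO mouse kidney libraries. The authors deposited raw UMI counts per gene and barcode, made against mm10 (GRCm38) with Cell Ranger 3.1.0 per the labels and the file headers, over all barcodes, with no cell filter, doublet removal or correction for free RNA. Their later steps, which included such corrections, are not part of the deposited counts.

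Barcodes were tested against the free RNA profile of their library and kept with at least 500 UMIs, at least 200 genes, at most 30% mitochondrial and 5% hemoglobin UMIs, and the top 7.5% by doublet score were removed in each library. Cells were clustered (2000 variable genes, 40 components, 20 neighbours, Leiden resolution 1; T/NK cells again with 1000 genes and 30 components), leaving the 10 genes and the other listed genes out of the features. Clusters were named from marker lists only, so class names were rebuilt here, and shares may differ from those of the study. Centring the T/NK values by library was dropped as the main choice after seeing the data and is an alternative. The 10 genes, lists and tests were chosen with earlier results of these data known.

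UMIs were summed per class and library in pools of at least 5 cells and tested with edgeR 4.0.16 (R 4.3.3, TMM scaling, filterByExpr, quasi-likelihood test, Benjamini-Hochberg over all genes tested, threshold 0.05). All 3 groups shared 1 fit, and gated cell types were fitted with the library as a block. The test was checked on simulated counts for the CD8 T-like, CD4 T-like and all T/NK pools. Against control it missed most changed genes in CD8 T-like pools, and its false calls clearly exceeded the threshold's rate in CD4 T-like pools and slightly in all T/NK cells (UIR) and CD8 T-like cells (UUO). NK-like and gated pools were not simulated. A floor of 3 counts bounded zeros, and 95% intervals for counts and shares are exact. The 95% intervals of fitted log2 differences take the SE as normal, which makes them somewhat narrow with so few libraries. Shares were also taken after thinning cells to 1000 UMIs. All 10 members are named. Of the other lists, up to the 3 largest changes per list with an adjusted p under 0.05 could be named. Likeness used log2(CPM + 10). Alternatives were DESeq2 1.42.0, no low-count filter, other limits on cells, free RNA subtraction, other ways to set cells, a replicate block and leaving out libraries. Clustering used Python 3.11.15, scikit-learn 1.9.0 and igraph 0.11.9. Promoters came from RefSeq on GRCm38.p6.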

Additional observations from a re-analysis of the deposited data

Results flagged for a closer look

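In 22 sets of control libraries, 1 library stood apart in 5. Chance gives about 1 in 20 for values without ties, and more can be met where counts are as sparse as here. *Gzmb* over all T/NK cells was at 280.0 CPM in control replicate 1, from 33 UMIs in 5 of its 21 cells, where the next control had 39.1 CPM. *Fasl* over all T/NK cells was at 31.9 CPM in control replicate 2, from 4 UMIs, and the next lowest control had 81.8 CPM. The other 3 rest on 1 or 2 UMIs against pools at 0, where the gap follows from the counts being sparse: *Gzmb* in CD4 T-like cells of control replicate 1 (64.9 CPM, 2 UMIs), *Lag3* in CD4 T-like cells of control replicate 3 (37.95 CPM, 1 UMI) and *Gzmb* in the *Klrb1c*-high T cluster of control replicate 4 (21.8 CPM, 1 UMI), where the other control pools of the class had 0.

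The effect of injury on *Gzma* over all T/NK cells differed between the injuries, with UUO above UIR by 1.35 on the log2 scale (edgeR adjusted p = 0.0270), a test of the difference itself. NK-like cells made up 3.11 to 5.01% of T/NK cells in UUO and 1.74 to 3.23% in UIR, and their part in this difference was not tested.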

How the results depend on the processing

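Fold changes of single genes that passed the threshold were recomputed for 31 results, giving 629 values over the alternatives: 553 kept direction and call, 75 lost the call and 1 changed direction. That one was *Ifng* in CD4 T-like cells, UUO against control, at 7.49 with 1000 UMIs per barcode, where 1 control pool was left. Calls between gated cell types were mostly kept, except *Ifng* in NK against CD4 T cells (lost in 9 of 18). Injury calls were lost more often. Over all T/NK cells, UIR against control, this was 11 of 26 for *Gzma*, 9 of 26 for *Klrd1* and 6 of 26 for *Gzmk*. For UUO against control it was 10 of 25 for *Ifng*, 6 of 26 for *Pdcd1* and 1 of 26 for *Gzmk*. *Gzma* in UUO against UIR lost it in 9 of 28, and *Ifng* in CD4 T-like cells in 8 of 23.

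Counts of members called moved by over 1.5 times as follows, and the cause was not tested. For CD4 T-like cells, UIR against control, the count was 1 with DESeq2 and 3 with features centred by library. For UUO against control (1 in the report) it was 0 with a mitochondrial limit of 15% or 50%, 1000 UMIs per barcode, doublets kept, the genes among the clustering features or resolution 2, and 3 with centred features. For CD8 T-like cells it was 1 in UUO against control with marker gates, at least 3 cells per pool, centred features or both unnumbered libraries left out, and 1 in UUO against UIR without both unnumbered libraries. For NK-like cells it was 1 with 1000 UMIs per barcode or doublets kept, and 2 without both unnumbered libraries. For all T/NK cells, UIR against control (3), it was 1 with free RNA subtracted, cells taken by UMIs of T/NK markers or both unnumbered libraries left out, and 0 without the NK-like and *Klrb1c*-high T clusters. For UUO against control (3) it was 1 with cells by UMIs, without both unnumbered libraries and without those clusters. For UUO against UIR (1) it was 0 with DESeq2, free RNA subtracted, cells by UMIs or both unnumbered libraries left out, and 2 with no filter. Centred features, 3 cells, both unnumbered libraries left out and those clusters left out were chosen after seeing the data.

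Leaving out 1 library at a time gave 0 to 0 members in CD4 T-like and CD8 T-like cells in UIR against control, 0 to 1 and 0 to 0 in UUO against control, 0 to 2 and 0 to 1 in UUO against UIR, and 0 to 1 in NK-like cells. In all T/NK cells it gave 1 to 4, 1 to 3 and 0 to 1. In gated cells it gave 6 to 6 (NK against CD8 T), 7 to 8 (NK against CD4 T) and 9 to 9 (CD8 T against CD4 T). With a replicate block the count was 1 in NK-like cells and 2 in all T/NK cells, UUO against UIR. UIR and UUO share replicate numbers, but their deviations from the group means correlated by only 0.03 to 0.10 for numbers 1 and 2 and by 0.29 to 0.36 for the unnumbered libraries, so the numbers were not taken as pairs.

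Depth was limited by control lymphocytes: 19 CD8 T-like, 27 CD4 T-like and 11 NK-like cells in 5 libraries, so NK-like cells could be tested against control only with at least 3 cells per pool, where 0 members were called, and at least 10 or 20 cells per pool, marker gates (CD4 T) and a mitochondrial limit of 15% (CD8 T) left no control pool.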
